A study of Mus musculus with 30 samples.

Results

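The genes described here are 8 transcriptional and RNA-level regulators that are known for holding lymphocytes at rest: the Krüppel-like factors Klf2, Klf3, Klf4 and Klf6, the forkhead factors Foxo1 and Foxp1, and the antiproliferative proteins Btg1 and Btg2. They were picked by gene symbol, with earlier results of these data known. They are 8 of the 19937 genes that the array represents by a probe set with 1 gene symbol. Each of the 8 had 1 such probe set, and none shared it with another gene.

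Resting lymphocytes keep their small size and stay out of the cell cycle by an active programme. Krüppel-like factors are zinc finger proteins that bind CACCC-type sequences, and Klf2 keeps resting lymphocytes in circulation by maintaining homing and egress receptors. Foxo1 works in the nucleus until AKT, switched on through the antigen receptor and PI3 kinase, phosphorylates it and sends it to the cytoplasm, while Foxp1 is a forkhead repressor needed for early B cell development. Btg1 and Btg2 bind the deadenylases of the CCR4-NOT complex and speed the decay of messenger RNA.

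All cells came from mice labelled CeGFP BALB/c, a knock-in strain with IRES-GFP in the 3'UTR of membrane IgE, so that every group, the naive cells included, carried the allele. All mice had been infected with the nematode Nippostrongylus brasiliensis, and mesenteric lymph nodes were taken on day 10. Each array held the RNA of 1 pool of 3 mice from a separate sort, and the age of the mice is not given in the labels. GFP marks IgE cells, and also IgG1 cells that have rearranged to the epsilon gene on the heavy chain chromosome they do not use, so GFP alone does not mean IgE.

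In the first experiment, naive B cells (B220+ CD95- CD138-, without IgG1 or IgE; n = 3) were compared with germinal centre (GC) cells and plasma cells (PC). GC cells were B220+ CD95+ CD138- and were GFP-negative IgG1 (n = 3), GFP-positive IgG1 (n = 3) or GFP-positive IgE (n = 3). PC were CD95+ CD138+ and were GFP-positive IgG1 (n = 2) or GFP-positive IgE (n = 4). In the second experiment, IgG1 GC cells were split into the dark zone (DZ, CXCR4 high and CD86 low), where GC cells divide, and the light zone (LZ, CXCR4 low and CD86 high), where they are selected. Both zones were sorted as GFP-positive and GFP-negative cells, with 3 arrays per group.

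Levels are log2 signals on Affymetrix Mouse Gene ST arrays after robust multi-array averaging (RMA), so a difference of 1 is a factor of 2 in signal. A gene was called changed at an adjusted p under 0.05 in limma's moderated test, with Benjamini-Hochberg adjustment over the 12098 genes tested in the first experiment or the 11050 in the second. Each array's median lay between 5.28 and 5.47. All 8 genes passed the filter on low signals in both experiments. Klf2, Klf6, Foxo1, Foxp1, Btg1 and Btg2 lay above the array's median on every array, Klf3 on 15 of 18 and 9 of 12 arrays, and Klf4 on 11 of 18 and 9 of 12. Levels of different genes are not set against each other, because each probe set has its own response. Marker lists of the cell types, most of whose genes are not the molecules sorted on, were also compared. All 7 GC markers tested were higher in IgE GC than in naive cells, and all 7 PC markers were higher in both PC groups than in naive cells. Of the GC markers, 4 were also higher and 1 lower in each PC group than in naive cells. Naive replicate 1 had the lowest mean correlation with its own group (0.892), and GFP-positive IgG1 GC replicate 3 also stood below its group (0.949 against 0.962).

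The promoters of the genes are shown because several of the genes moved together or apart. RefSeq (assembly GRCm38.p6) gave 10 promoter windows for the 8 genes, each from 250 bases before to 50 bases after a start site, with 3 windows for Foxp1. The windows were searched on both strands for the forkhead motif GTAAACA, the cAMP response element TGACGTCA, the E-box CACGTG and the Krüppel-like motif CCACACCC. Capitals mark the motif found, and the sequences run 5′ to 3′ on the strand of the gene. The Btg1 window is chr10:96616786-96616815 (plus strand), with the forkhead motif as its reverse complement 204 bases before the start site. The Btg2 window is chr1:134079303-134079332 (minus strand), with the cAMP response element 166 bases before the start site. The Klf4 window is chr4:55532640-55532669 (minus strand) and the Klf6 window is chr13:5861434-5861463 (plus strand), with the E-box 182 and 43 bases before the start site.
Btg1: gggggtttattTGTTTACaagcagattacg
Btg2: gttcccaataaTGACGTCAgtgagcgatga
Klf4: cgcccccgccccCACGTGcgcggagtttgt
Klf6: ctccaagctggtCACGTGgggggagaaggg
The Btg1 and Btg2 windows thus carried different motifs, each in 1 of the 10 windows. Among 32851 mouse promoters of the same length, 3.65% held the forkhead motif, 1.79% the cAMP response element, 7.15% the E-box and 3.56% the Krüppel-like motif, which was in none of the 10 windows. A match is a description of these letters only.

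The first comparison asks how the genes differ between resting B cells and B cells that have entered the germinal centre. Klf2, Klf3, Foxp1 and Btg1 were lower in GC cells than in naive cells, in IgE cells and in both IgG1 populations. Klf3 was 5.49- to 8.15-fold lower, Klf2 3.16- to 3.56-fold, Btg1 2.01- to 2.27-fold and Foxp1 1.96- to 1.98-fold. Klf4, Klf6, Foxo1 and Btg2 did not pass the test in any of the 3 comparisons, which share the naive arrays. In IgE GC cells, 4 of the 8 genes were lower, where 7.4% of all genes tested were lower, and none was higher, where 19.3% were. The same 4 of 8 were lower in GFP-positive IgG1 GC cells, against 6.43% of all genes lower and 16.8% higher. They were also the 4 lower in GFP-negative IgG1 GC cells, against 9.35% lower and 20.5% higher. The median log2 difference of the 8 genes was -0.68, -0.69 and -0.65 in these comparisons, and that of all genes tested was 0.06, 0.02 and 0.07.

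Klf2, which maintains the egress receptor S1pr1 in lymphocytes, read 8.43, 8.05 and 8.26 on the naive arrays. The IgE GC arrays read 6.46, 6.83 and 6.46, those of IgG1 GC with GFP 6.55, 6.41 and 6.27, and those without GFP 6.57, 6.44 and 6.65. Every GC array lay below every naive array, by more than 1 log2 unit, and the 3 GC groups overlapped. The log2 difference from naive cells was -1.66 ± 0.24 (SE; adjusted p = 8.18e-05) for IgE GC, -1.83 (adjusted p = 3.32e-05) for GFP-positive IgG1 GC and -1.69 (adjusted p = 7.48e-05) for GFP-negative IgG1 GC.

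Klf3, a Krüppel-like factor that represses transcription through the corepressor CtBP, read 7.26, 9.41 and 8.51 on the naive arrays. The IgE GC arrays read 5.98, 6.01 and 5.83, those of IgG1 GC with GFP 4.73, 6.23 and 5.14, and those without GFP 5.94, 5.82 and 5.37. No GC array reached the lowest naive array, although the naive arrays spread the most of any group for any of the 8 genes, with an SD of 1.08, and the lowest of them was replicate 1. The log2 difference was -2.46 ± 0.47 (SE; adjusted p = 9.23e-04) for IgE GC, -3.03 (adjusted p = 1.59e-04) for GFP-positive IgG1 GC and -2.68 (adjusted p = 4.65e-04) for GFP-negative IgG1 GC. Its GC levels lay close to the median of the arrays.

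Foxp1, which restrains the germinal centre and antibody-secreting programmes of B cells, read 9.95, 10.47 and 10.08 on the naive arrays. Its GC readings were 9.30, 9.39 and 8.91 for IgE, 9.04, 9.17 and 9.37 for GFP-positive IgG1, and 9.08, 9.59 and 8.87 for GFP-negative IgG1. The groups did not overlap with naive cells, and the log2 difference was -0.97 ± 0.22 (SE; adjusted p = 0.00318) for IgE GC. The differences of the IgG1 populations were -0.97 (adjusted p = 0.00341) in GFP-positive and -0.99 (adjusted p = 0.00287) in GFP-negative cells.

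Btg1 was the steadiest of the genes on the naive arrays, with 11.89, 11.91 and 11.80. The IgE GC arrays read 10.75, 10.82 and 10.48, those of IgG1 GC with GFP 10.80, 10.64 and 10.79, and those without GFP 10.95, 10.98 and 10.64. All 9 GC arrays lay below all 3 naive arrays. Its log2 difference was -1.18 ± 0.19 (SE; adjusted p = 2.04e-04) for IgE GC, -1.13 (adjusted p = 3.46e-04) for GFP-positive IgG1 GC and -1.01 (adjusted p = 8.64e-04) for GFP-negative IgG1 GC. These signals come from sorted populations in bulk, so fewer cells carrying a transcript and less transcript per cell cannot be told apart.

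**Figure D1:**
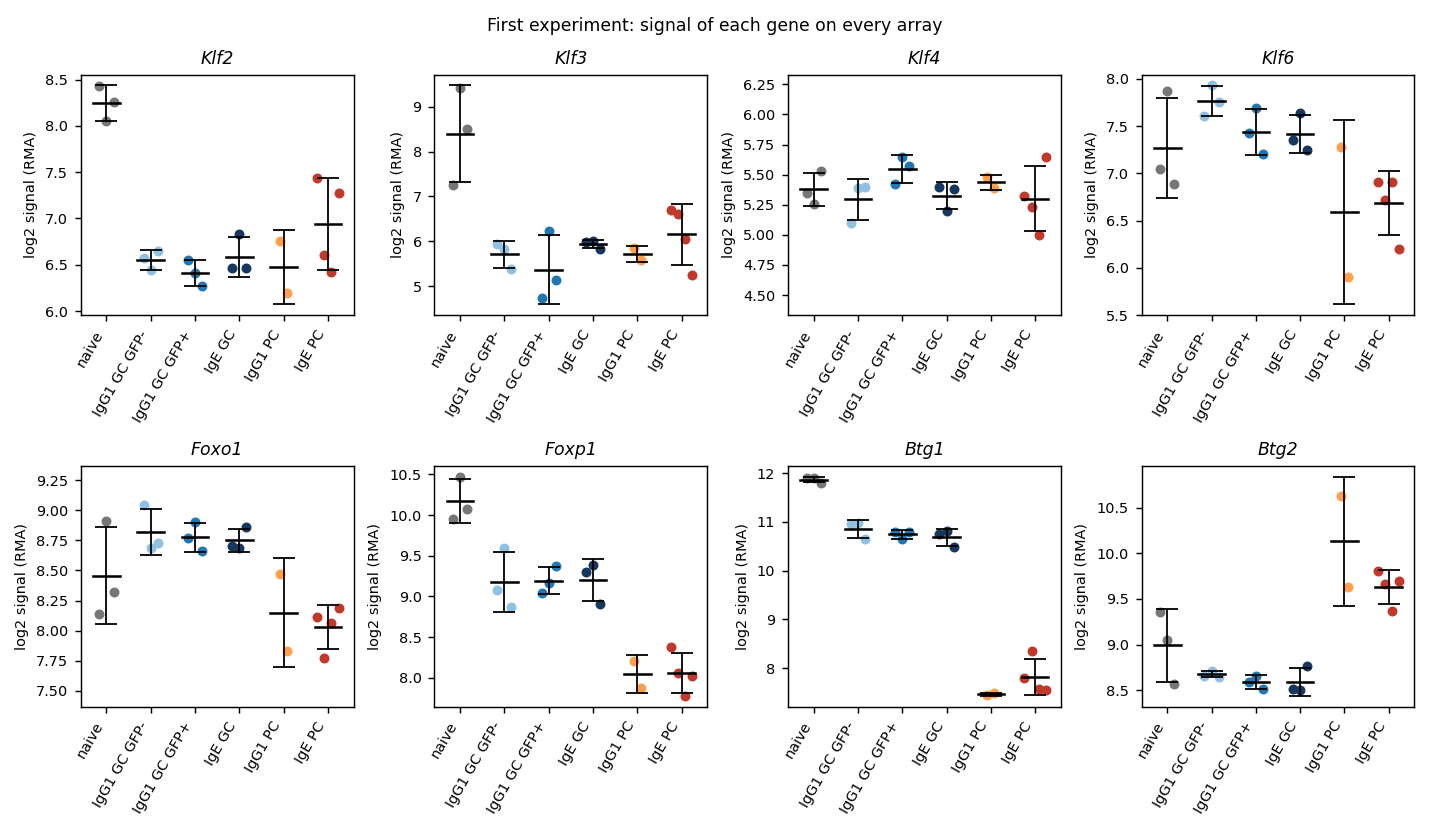
Signal of the 8 genes on the 18 arrays of the first experiment, with 1 panel per gene, the groups on the horizontal axis and log2 signal (RMA) on the vertical axis, which does not start at 0 and differs between panels. Points are arrays, long bars are group means and whiskers are the SD; Klf2, Klf3, Foxp1 and Btg1 are highest in naive cells, and Btg1 falls to between 7.44 and 8.35 in PC while Btg2 is highest there.

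The other 4 genes were not called between naive and GC cells. Klf4, which slows B cell proliferation and is itself a target of FOXO factors in B cells, stayed between 5.10 and 5.65 in all GC arrays and between 5.26 and 5.53 in naive cells, near the median of the arrays. Klf6, a widely expressed growth-restraining factor, read 7.05, 7.87 and 6.89 in naive cells and 7.20 to 7.93 over the 9 GC arrays, and its log2 difference was 0.14 (95% interval -0.52 to 0.81) for IgE GC. Foxo1 read 8.14, 8.91 and 8.32 in naive cells and 8.66 to 9.04 over the GC arrays. Its log2 difference was 0.30 (interval -0.14 to 0.74; adjusted p = 0.304) for IgE GC. Without naive replicate 2, the array with the highest naive Foxo1, the difference was 0.55 (adjusted p = 0.0472) for GFP-positive and 0.59 (adjusted p = 0.0279) for GFP-negative IgG1 GC. Btg2 read 9.36, 9.05 and 8.57 in naive cells and 8.50 to 8.77 over the GC arrays, a log2 difference of -0.40 (interval -0.89 to 0.09; adjusted p = 0.21) for IgE GC, which became -0.68 (adjusted p = 0.0393) after a further quantile normalization.

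The relatives and partners of the genes were counted in the same comparison of IgE GC with naive cells. Of 10 other Krüppel-like factors tested, 3 were lower and none higher: Klf12 (log2 difference -1.36), Klf13 (-0.85) and Klf5 (-0.50). Of 5 other FOXO and FOXP genes, Foxo3, which shares targets with Foxo1, was lower (-0.87) and none was higher. Of 16 genes of the BTG/TOB family and the deadenylation machinery, 7 were higher, none lower and 9 not called. The higher genes included Cnot9 (1.91), Cnot11 (1.35) and Cnot6 (1.14), which are parts of the CCR4-NOT complex, and Prmt1 (1.45), an arginine methyltransferase that binds Btg1 and Btg2. The relatives Tob1 (-0.02, adjusted p = 0.968) and Tob2 (-0.04, adjusted p = 0.912) did not pass.

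Of 7 trafficking genes linked to Klf2, 4 were lower in IgE GC than in naive cells and none higher. They were S1pr1 (-2.85), the integrin chain Itgb7 (-1.97), the lymph node homing receptor Ccr7 (-1.89) and the complement receptor Cr2 (-1.80). S1pr1 averaged 10.36 ± 0.38 (SD, n = 3) in naive cells and 7.51 ± 0.31 (SD, n = 3) in IgE GC cells. Of 15 genes linked to FOXO factors, 5 were lower and 2 higher, with the cell cycle inhibitor Cdkn1b (-2.19), the stress sensor Sesn1 (-1.71) and Tsc22d3 (-1.64) among the lower and Gadd45a (1.30) among the higher. Of 16 genes of the PI3K and AKT route to FOXO, 8 were higher and 1 lower, including Akt2 (1.92), Akt1 (1.73), Skp2 (1.59), a ligase subunit that marks Foxo1 for destruction, and Pdpk1 (1.24), the kinase that activates AKT.

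Among 6 genes of the MEF2 and ERK5 route that induces Klf2 and Klf4, only Mef2a was called (1.38). Of 13 other genes tied to quiescence, 3 were higher and 1 lower. Slfn2, needed for T cell quiescence, was lower (-1.93), while the cell cycle inhibitor Cdkn2c (3.19) and the DREAM complex members Lin9 (1.14) and Lin54 (0.78) were higher. All 19 cell division genes tested were higher, led by Mki67 (6.06) and Rrm2 (5.63). The median log2 difference was -0.28 for the Krüppel-like list, 0.52 for the BTG/TOB and CCR4-NOT list, -1.80 for the Klf2-linked list, -0.16 for the FOXO-linked list and 0.36 for the PI3K and AKT list.

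Markers of other cell types also moved with this comparison, and their part in it was not tested. For macrophages and dendritic cells, 9 of 9 markers were on the array, and their log2 summed signal was 9.07 to 9.89 in naive and 8.09 to 8.55 in GC cells. Tyrobp (-2.78) and Siglech (-1.73) were lower in IgE GC, and both were above the array's median on every naive array. Csf1r, Lyz2, Cd68, Adgre1, Itgax, Itgam and Cd14 were not. For T cells, 8 of 10 markers were on the array, with a summed signal of 9.15 to 9.41 in naive and 8.37 to 9.22 in GC cells. Cd8a (-0.71) and Cd8b1 (-1.06) were lower in IgE GC. Cd3d, Cd3g, Cd4, Cd8b1 and Cd28 were not above the median on every naive array, whereas Cd3e, Cd8a and Thy1 were. The summed signal of 8 of 9 stromal and endothelial markers was 9.73 to 10.64 in naive and 8.38 to 9.11 in GC cells, with Pecam1 the one marker called (-2.38). That of 6 of 6 natural killer cell markers was 7.39 to 7.78 in naive and 6.70 to 7.13 in GC cells. Klf2, Klf4, Klf6 and Btg2 are also known to respond to cell handling, and of 18 immediate early and dissociation stress genes tested, Gadd45b was higher (2.59) and Zfp36 lower (-0.66).

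The second question is how the genes differ between GC cells and plasma cells. These comparisons share their GC arrays with the comparisons against naive cells. Btg1 and Foxp1 were lower and Btg2 was higher in PC than in GC cells, in IgE and in IgG1 cells. Btg1 was 7.3-fold lower in IgE PC and 9.69-fold lower in IgG1 PC, and Foxp1 was 2.21- and 2.22-fold lower. Btg2, the closest relative of Btg1 in the set, was 2.06-fold higher in IgE PC and 2.91-fold higher in IgG1 PC. Foxo1 was 1.64-fold lower in IgE PC. Klf2, Klf3 and Klf4 did not pass in either comparison. In IgE cells, 3 of 8 genes were lower and 1 higher, where 13.4% and 10.2% of all genes were, so the single higher gene is close to the background share. In IgG1 cells, 2 of 8 were lower and 1 higher, against 13.1% and 8.32%. The median of the 8 genes was -0.37 in both comparisons, and that of all genes was -0.03 and -0.01.

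Btg1 read 7.80, 8.35, 7.57 and 7.55 in IgE PC and 7.44 and 7.48 in IgG1 PC. Its GC levels, given above, were 10.48 or more on every array, so no PC array came within 2 log2 units of a GC array. The log2 difference was -2.87 ± 0.18 (SE; adjusted p = 6.41e-09) between IgE PC and IgE GC and -3.28 ± 0.21 (SE; adjusted p = 1.68e-08) between IgG1 PC and GFP-positive IgG1 GC. In IgE cells it ranked 72 among the 12098 genes tested, counted from the most negative difference.

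Btg2, a target of p53 that slows the cell cycle, read 9.80, 9.66, 9.37 and 9.70 in IgE PC and 10.63 and 9.63 in IgG1 PC, against 8.50 to 8.77 over all GC arrays. Every PC array was above every GC array, and IgG1 PC replicate 1 was the highest. The difference on the log2 scale was 1.04 ± 0.22 (SE; adjusted p = 0.00158) in IgE cells and 1.54 ± 0.26 (SE; adjusted p = 2.96e-04) in IgG1 cells. Without IgG1 PC replicate 1, the IgG1 difference was 1.04 and kept its call.

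**Figure D2:**
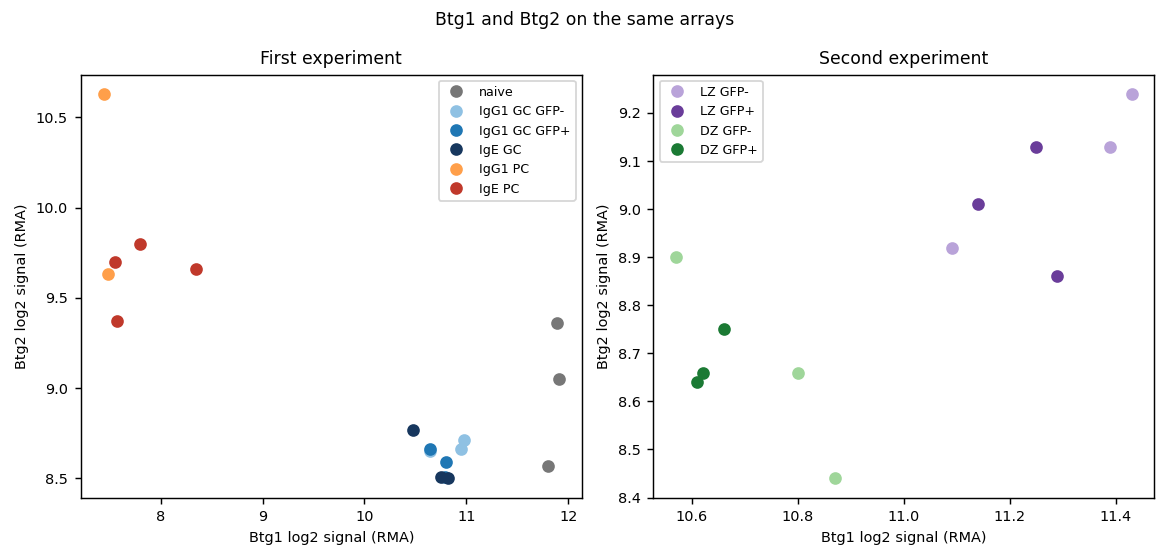
Btg1 log2 signal (horizontal) against Btg2 log2 signal (vertical) on the same arrays, first experiment on the left and second on the right; points are arrays, colours are groups, and the axes do not start at 0. On the left the 6 PC arrays have low Btg1 and high Btg2, apart from the GC arrays, and on the right the LZ arrays lie higher than the DZ arrays on the Btg1 axis and, with overlap, on the Btg2 axis.

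Foxp1 read 8.38, 8.06, 7.78 and 8.02 in IgE PC and 8.21 and 7.88 in IgG1 PC, below every GC array. The log2 difference was -1.14 ± 0.20 (SE; adjusted p = 4.18e-04) in IgE cells and -1.15 ± 0.24 (SE; adjusted p = 0.00227) in IgG1 cells. Foxo1 read 8.11, 7.77, 8.06 and 8.19 in IgE PC and 8.47 and 7.83 in IgG1 PC, also without overlap with the GC arrays. Its difference was -0.72 ± 0.19 (SE; adjusted p = 0.0121) in IgE cells, which did not pass without IgE GC replicate 3 (-0.66, adjusted p = 0.0544). In IgG1 cells the difference was -0.63 (interval -1.12 to -0.14; adjusted p = 0.0649).

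Klf6 read 6.91, 6.72, 6.91 and 6.20 in IgE PC and 7.28 and 5.90 in IgG1 PC. The IgE PC arrays lay below the IgE GC arrays (7.25 to 7.64), but the difference of -0.73 (interval -1.35 to -0.11) had an adjusted p of 0.0871, and of 0.0253 with these groups alone in the fit. In IgG1 cells it was -0.85 (adjusted p = 0.0982). The IgG1 values of Klf6 and Foxo1 rest on IgG1 PC replicate 1, the higher of the 2 arrays for both genes: without it the differences were -1.54 (adjusted p = 0.00647) and -0.95 (adjusted p = 0.0236), with the lone array assumed to vary like the other groups.

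The Krüppel-like genes that had been lower in GC than in naive cells were not called between GC and PC. Klf2 read 7.44, 6.61, 6.42 and 7.28 in IgE PC and 6.76 and 6.19 in IgG1 PC, and its difference was 0.35 (interval -0.13 to 0.84) in IgE cells and 0.06 (interval -0.51 to 0.64) in IgG1 cells. IgE PC replicates 1 and 4 were above all GC arrays and replicates 2 and 3 among them. Klf3 read 6.70, 6.61, 6.05 and 5.24 in IgE PC and 5.85 and 5.59 in IgG1 PC, a difference of 0.21 (interval -0.72 to 1.14) in IgE cells. Klf4 read 5.00 to 5.65 in PC, a difference of -0.03 (interval -0.36 to 0.30) in IgE cells.

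**Figure D3:**
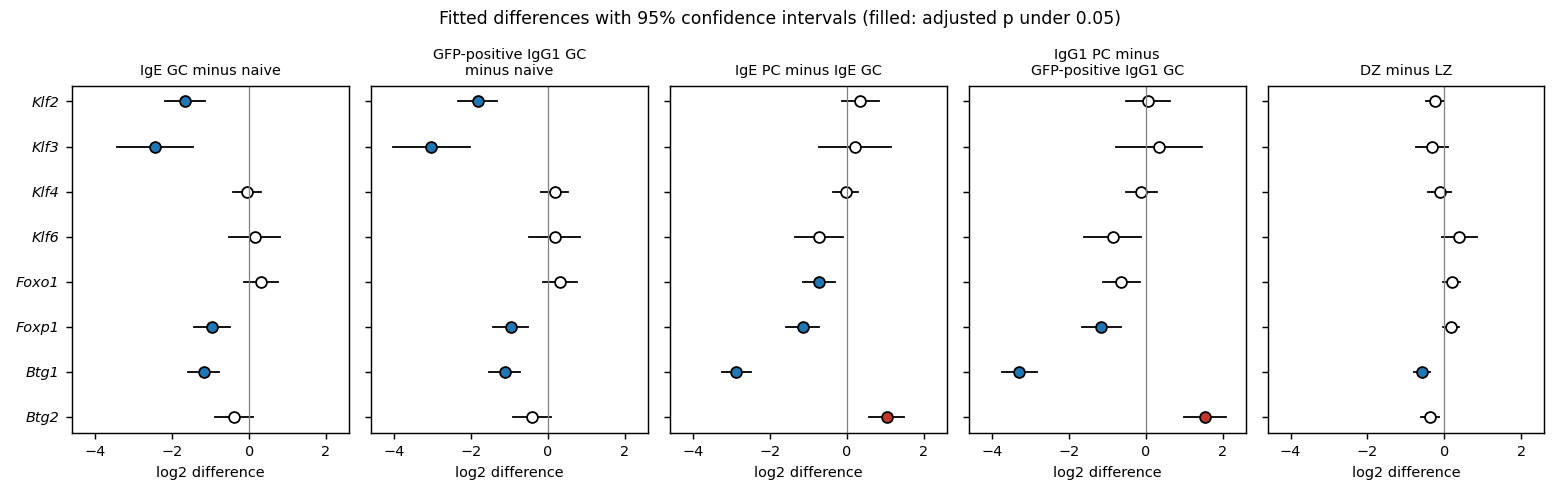
Fitted log2 differences of the 8 genes (rows) in 5 comparisons (panels), with 95% confidence intervals from limma; filled points have an adjusted p under 0.05, blue for lower and red for higher, and the vertical line is no difference. Btg1 is filled in all 5 panels, Klf2 and Klf3 in the comparisons with naive cells alone, and Btg2 in the PC panels.

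Set directly against naive cells, PC had lower Klf2, Klf3, Foxp1 and Btg1 and higher Btg2. Btg1 was 16.6-fold lower in IgE PC (log2 difference -4.05 ± 0.18 SE, adjusted p = 7.21e-11) and 21.2-fold lower in IgG1 PC (-4.40 ± 0.21 SE, adjusted p = 3.81e-10). Foxp1 was 4.32-fold lower in IgE PC (adjusted p = 3.41e-07) and 4.36-fold lower in IgG1 PC (adjusted p = 3.75e-06). Klf2 was 2.48- and 3.41-fold lower (adjusted p = 2.20e-04 and 8.91e-05), and Klf3 4.74- and 6.4-fold lower (adjusted p = 6.51e-04 and 8.60e-04). In IgE PC, 4 of 8 genes were lower and 1 higher, where 14.1% of all genes were lower and 23% higher. The counts were the same in IgG1 PC, against 12.2% lower and 17.1% higher. The median of the 8 genes was -0.95 for IgE PC and -1.23 for IgG1 PC, and that of all genes was -0.01 and 0.01.

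The Btg2 calls against naive cells depended on the arrays and settings used, whereas those against GC cells held in every alternative run. The naive arrays of Btg2 ran from 8.57 to 9.36. On the log2 scale the difference was 0.64 ± 0.22 (SE; adjusted p = 0.0271) for IgE PC, but it was 0.30 (adjusted p = 0.296) after a further quantile normalization, 0.64 (adjusted p = 0.0659) with the 2 groups alone in the fit and 0.43 (adjusted p = 0.156) without naive replicate 3. It also missed the threshold without IgE PC replicate 1 (0.59), 2 (0.63) or 4 (0.62), at adjusted p-values of 0.0648, 0.0519 and 0.0542. For IgG1 PC the difference was 1.13 ± 0.26 (SE; adjusted p = 0.00279), but 0.64 (adjusted p = 0.0936) without IgG1 PC replicate 1 and 1.13 (adjusted p = 0.108) with the 2 groups alone. Foxo1 was not called against naive cells in IgE PC (-0.42, adjusted p = 0.103) or in IgG1 PC (-0.31, adjusted p = 0.371). In IgE PC it passed without naive replicate 1 (-0.58, adjusted p = 0.0403) and after a further quantile normalization (-0.69, adjusted p = 0.00598). Klf6 was not called in either (-0.59, adjusted p = 0.13, and -0.68, adjusted p = 0.168), but passed in IgE PC after a further quantile normalization (-0.77, adjusted p = 0.0351) and in IgG1 PC without its replicate 1 (-1.37, adjusted p = 0.00922).

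The lists gave a mixed account between GC and PC. None of the 10 other Krüppel-like genes was higher in IgE PC and Klf10 was lower (-1.12), while Foxo3, lower in GC than in naive cells, was higher in PC than in GC in IgE (1.69) and IgG1 cells (1.12). Of 16 BTG/TOB and CCR4-NOT genes, 3 were lower in IgE PC and 4 in IgG1 PC, and none was higher. Pan3, a subunit of a second cytoplasmic deadenylase, was lower (-1.06 in IgE and -1.78 in IgG1 cells), as were Cnot2 (-0.82 and -1.28) and Cnot6l (-0.78 and -0.89). Cnot7 and Cnot8, the deadenylases that Btg1 and Btg2 bind, were not called in IgE PC (-0.07 and 0.53) or IgG1 PC (-0.45 and 0.67).

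Of 7 Klf2-linked trafficking genes, the same 3 were lower in both PC groups: the follicle homing receptor Cxcr5 (-4.61 in IgE and -4.76 in IgG1 cells), Cr2 (-4.29 and -4.86) and the low-affinity IgE receptor Fcer2a (-1.94 and -4.49). S1pr1 was higher in IgG1 PC (1.51, adjusted p = 0.00376) and not called in IgE PC (0.60, adjusted p = 0.151). Of 15 FOXO-linked genes, 4 were higher and 4 lower in IgE PC, and 5 and 5 in IgG1 PC. Bach2, a repressor of plasma cell differentiation, was lower (-4.51 and -4.67), as was Sesn3 (-2.53 and -2.84), whereas Cdkn1b (2.21 and 2.59) and Trib1 (2.90 and 2.52) were higher. Cdkn1b averaged 8.37 ± 0.26 (SD, n = 3) in naive cells, 6.18 ± 0.22 (SD, n = 3) in IgE GC and 8.39 ± 0.18 (SD, n = 4) in IgE PC.

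Of 16 PI3K and AKT genes, 5 were lower in IgE PC, among them the kinase subunit Pik3cd (-1.03), the phosphatase Inpp5d (-1.02), the nuclear exporter Xpo1 (-0.86) and Akt1 (-0.85), and 3 were lower in IgG1 PC. The MEF2 and ERK5 list had none of 6 called in IgE PC, with 0 of 6 at an unadjusted p under 0.05, and Mef2a (-1.09) and Mef2c (-0.68) lower in IgG1 PC. Of the 13 other quiescence genes in IgE PC, Mxd4 (1.19) and Mxi1 (0.85), antagonists of MYC, were higher and 3 were lower, including Ets1 (-1.63) and Cdkn2d (-1.36). Of 19 cell division genes, 10 were lower in IgE PC and 5 in IgG1 PC, and none was higher. Of 18 immediate early and stress genes, 2 were higher and 2 lower in IgE PC, led by Jun (1.72) and Egr1 (-1.38).

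Some markers of other cells moved with PC as well. The log2 summed signal of the 8 T cell markers on the array was 10.47 to 11.37 in PC and 8.37 to 9.22 in GC cells. Of the markers tested, Cd28 (4.31), which plasma cells are also known to express, and Thy1 (2.05) were higher in IgE PC than in IgE GC. Cd3d, Cd3g, Cd4, Cd8a and Cd8b1 were not above the array's median on every PC array, whereas Cd3e, Cd28 and Thy1 were. Cd3e was above the median on every GC array as well, and it was not called between PC and GC cells. For 8 granulocyte markers the sum was 7.83 to 8.92 in PC and 7.46 to 7.85 in GC cells, an overlap. Prg2 was higher in IgE PC (2.12), the 1 called of 4 tested. S100a8, S100a9, Ly6g, Csf3r, Mpo and Epx were not above the median on every PC array. For 9 macrophage and dendritic cell markers the sum was 8.31 to 9.49 against 8.09 to 8.55, also an overlap. Cd68 was higher in IgE PC (1.48), again the 1 called of 4 tested. Csf1r, Lyz2, Adgre1, Itgax, Siglech, Itgam and Cd14 were not above the median on every PC array. Pecam1, an endothelial marker, was lower in PC than in GC cells (-1.17 in IgE and -1.71 in IgG1), and Prf1, a cytotoxic cell marker, was higher in IgG1 PC than in IgG1 GC (1.38). The part of these cells in the results was not tested.

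IgE and IgG1 cells were compared to ask whether isotype goes with a difference in the genes. In the GC, no gene of the 8 was called between IgE and GFP-positive IgG1 cells, where 0% of all 12098 genes were called by limma and 264 had an unadjusted p under 0.05. The lowest unadjusted p of the 8 was 0.204, for Klf4, whose IgE arrays (5.20 to 5.40) lay just below the IgG1 arrays (5.42 to 5.65). The interval was narrowest for Klf4 (-0.22, -0.57 to 0.13) and widest for Klf3 (0.57, -0.42 to 1.56). It was -0.45 to 0.46 for Foxp1 (0.01), -0.46 to 0.35 for Btg1 (-0.05) and -0.47 to 0.41 for Foxo1 (-0.03).

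In PC, again none of the 8 was called between IgE and IgG1, where 0.785% of all genes were higher in IgE and 0.174% lower, and none had an unadjusted p under 0.05. Btg1 was higher in all 4 IgE PC arrays (7.55 to 8.35) than in the 2 IgG1 PC arrays (7.44 and 7.48), but the difference of 0.35 had an interval of -0.07 to 0.78 and an adjusted p of 0.495. Btg2 differed by -0.49 (interval -1.01 to 0.02; adjusted p = 0.412), and by 0.01 without IgG1 PC replicate 1. Klf2 differed by 0.46 (interval -0.08 to 1.01; adjusted p = 0.487). The interaction, which asks whether the step from GC to PC differs between IgE and IgG1 cells, called 0.0909% of all genes and none of the 8. It was 0.41 (interval -0.18 to 0.99) for Btg1 and -0.50 (interval -1.21 to 0.21) for Btg2, and no unadjusted p of the 8 was under 0.05.

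GFP marks an epsilon rearrangement in IgG1 cells, so IgG1 GC cells with and without GFP were compared. None of the 8 genes was called, with the lowest unadjusted p at 0.152 for Klf4 (difference 0.25, interval -0.10 to 0.60), where 0% of all genes were called and 265 had an unadjusted p under 0.05. The difference was -0.14 (interval -0.66 to 0.38) for Klf2, -0.12 (interval -0.52 to 0.29) for Btg1 and -0.04 (interval -0.48 to 0.40) for Foxo1.

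The second experiment asks how the genes differ between the zones of the germinal centre. Btg1 was 1.49-fold lower in DZ than in LZ cells and was the one gene of the 8 called, where 3% of all 11050 genes tested were lower and 3.92% higher in DZ. Btg2 was 1.3-fold lower and missed the threshold. The other 6 genes were not called, with differences from -0.33 for Klf3 to 0.39 for Klf6. The median of the 8 genes was -0.18 and that of all genes 0.

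Btg1 read 10.61, 10.66 and 10.62 in GFP-positive DZ, 10.57, 10.87 and 10.80 in GFP-negative DZ, 11.14, 11.25 and 11.29 in GFP-positive LZ, and 11.39, 11.43 and 11.09 in GFP-negative LZ cells. Every DZ array was below every LZ array, and GFP classes overlapped within LZ and within DZ. The difference in log2 signal was -0.58 ± 0.10 (SE; adjusted p = 0.00342). Across all alternatives it stayed between -0.63 and -0.53, with an adjusted p of at most 0.0119.

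Btg2 read 8.64, 8.75 and 8.66 in GFP-positive DZ, 8.90, 8.44 and 8.66 in GFP-negative DZ, 9.01, 9.13 and 8.86 in GFP-positive LZ, and 9.13, 9.24 and 8.92 in GFP-negative LZ cells. The zones overlapped at 1 array each, GFP-negative DZ replicate 1 and GFP-positive LZ replicate 3. The log2 difference was -0.38 ± 0.11 (SE; adjusted p = 0.0547). It passed with a trended robust prior (adjusted p = 0.044), after a further quantile normalization (-0.45, adjusted p = 0.0173), without GFP-negative DZ replicate 1 (-0.43, adjusted p = 0.0401) and without GFP-negative LZ replicate 3 (-0.42, adjusted p = 0.049).

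**Figure D4:**
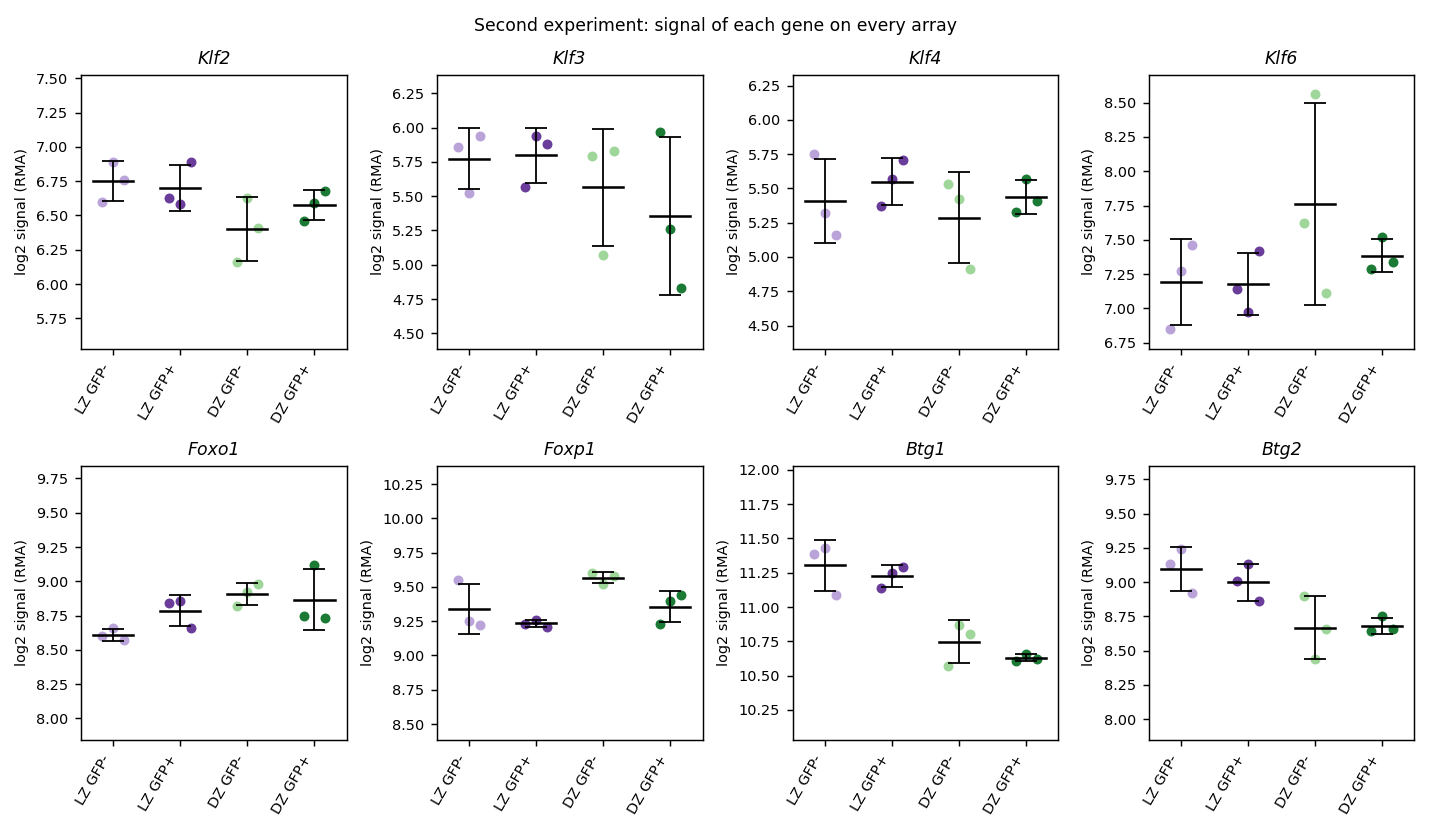
Signal of the 8 genes on the 12 arrays of the second experiment, with 1 panel per gene, zone and GFP class on the horizontal axis and log2 signal (RMA) on the vertical axis, which does not start at 0. Points are arrays, long bars are group means and whiskers are the SD; Btg1 separates the zones without overlap, at 10.57 to 10.87 in DZ and 11.09 to 11.43 in LZ.

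Foxo1, which is known for supporting the dark zone programme, read 8.73 to 9.12 over the 6 DZ arrays (median 8.87) and 8.57 to 8.86 over the 6 LZ arrays (median 8.66), an overlap, with a log2 difference of 0.19 (interval -0.03 to 0.40; adjusted p = 0.296). Foxp1 read 9.23 to 9.60 in DZ (median 9.48) and 9.21 to 9.55 in LZ (median 9.24), a difference of 0.17 (interval -0.03 to 0.37). Klf6 read 7.11 to 8.56 in DZ (median 7.43) and 6.85 to 7.46 in LZ (median 7.20), with 1 high array, GFP-negative DZ replicate 2, and a difference of 0.39 (interval -0.06 to 0.84). Klf2 read 6.16 to 6.68 in DZ (median 6.52) and 6.58 to 6.89 in LZ (median 6.70), a difference of -0.24 (interval -0.48 to 0; adjusted p = 0.232). Klf3 and Klf4 lay near the median of the arrays in both zones, at 4.83 to 5.97 and 4.91 to 5.75.

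GFP made no called difference to the 8 genes in the zones. None passed for GFP-positive against GFP-negative cells over both zones, where 0% of all genes were called and 519 had an unadjusted p under 0.05, and the lowest unadjusted p of the 8 was 0.11, for Foxp1 (-0.16, interval -0.36 to 0.04). The interaction of zone and GFP called none either, again 0% of all genes, with 543 at an unadjusted p under 0.05. It was -0.04 (interval -0.46 to 0.38) for Btg1.

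Between zones, the relatives and partners of the 8 genes were counted in the same way, where 3.92% of all genes tested were higher and 3% lower in DZ. None of the 8 Krüppel-like and 4 FOXO and FOXP relatives tested was called, with none at an unadjusted p under 0.05, and none of 16 FOXO-linked genes was called, with 2 at an unadjusted p under 0.05. Cnot6 was higher (0.43) and Cnot6l lower (-0.37) in DZ, with 2 of 16 BTG/TOB and CCR4-NOT genes higher and 1 lower. Of the Klf2-linked genes, Cd69 (-1.29), which removes S1pr1 from the cell surface, Cr2 (-0.99) and Fcer2a (-0.96) were lower in DZ, and S1pr1 was not called (0.35, adjusted p = 0.135). Akt1 was higher (0.58) as 1 of 16 PI3K and AKT genes. Slfn2 (-1.02) and Mxd4 (-0.60) were lower.

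Cell division genes were higher in DZ for 7 of 19 and lower for none, with Plk1 (1.34) and Ccnb2 (1.20) in the lead. Of 17 immediate early and stress genes, 5 were lower in DZ and none higher, including Egr2 (-1.56) and Nr4a1 (-1.29), which respond to the antigen receptor, Egr3 (-0.69) and Junb (-0.59), so these genes moved with Btg1, and their part in its difference was not tested. Between zones, 7 of 10 T cell markers could be tested, but just 1 of 6 for natural killer cells and 2 of 9 for macrophages and dendritic cells. For granulocytes it was 1 of 8, and for basophils and mast cells 1 of 6. None of these markers was called, with none at an unadjusted p under 0.05, and of 4 stromal markers tested Pecam1 was lower (-0.55).

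The 8 genes did not share 1 pattern over the arrays. Across the 18 arrays of the first experiment, which fall into groups so that Pearson's r mostly reflects group means, Foxp1 and Btg1 had r = 0.94, Klf6 and Foxo1 0.83 and Klf2 and Klf3 0.77, while Btg1 and Btg2 had r = -0.79. Across the 12 arrays of the second experiment, Btg1 and Btg2 had r = 0.75, Foxp1 and Btg1 -0.41 and Klf2 and Klf3 -0.17. The Btg genes differed in opposite directions between PC and GC cells. Between naive and GC cells the fitted differences of both were negative, with that of Btg2 not called.

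Genes with the most similar pattern to each were taken as the 3 highest r over the 18 arrays of the first experiment. For Btg1 they were H2-Oa (0.987), an inhibitor of peptide loading on MHC class II, Fam3c (0.986) and the sorting receptor Sorl1 (0.985). In the second experiment, r with Btg1 was 0.93 for Sorl1, 0.61 for H2-Oa and 0.26 for Fam3c. Sorl1 was picked for its likeness to Btg1 on the arrays of the first experiment, so its differences between those groups are no separate evidence. They were -3.83 between IgE PC and IgE GC and -0.87 between IgE GC and naive cells.

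For Btg2 the 3 were Zdhhc14 (0.934), Wipi1 (0.933), an autophagy protein, and the IgA heavy chain gene Igha (0.933). For Foxp1 they were B3gnt5 (0.958), Lrrk2 (0.952) and Lifr (0.95), and for Foxo1 Lcor (0.93), Bcar3 (0.928) and Bcl9 (0.912). For Klf2 they were S100a11 (0.926), Tpt1 (0.922) and the calcium channel Orai1 (0.913), for Klf3 Ccdc125 (0.917), Ampd3 (0.911) and Pirb (0.888), and for Klf6 Cntrl (0.931), Trim21 (0.897) and Lrig2 (0.894). Klf4, which stayed near the median of the arrays, had the weakest likeness, with Nat14 at 0.778. Over the 12 arrays of the second experiment r was -0.69 for Foxo1 and Lcor, -0.57 for Foxp1 and B3gnt5, -0.03 for Klf2 and S100a11 and -0.50 for Btg2 and Igha.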

How the data were processed

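Sorted B cells were profiled on Affymetrix Mouse Gene ST arrays. Per the labels' protocols, total RNA was amplified and labelled with biotin. The authors deposited log2 values, with RMA and R 2.15.2 named in the submitters' processing notes. No source used here tells if the arrays of the first and second experiment went through RMA together, and levels were compared within an experiment alone. No batch or date was given to test. Of 34760 probe sets, 21640 had 1 gene symbol, 1321 several and 11799 none, and the last 2 kinds were left out. Each of 19937 genes was taken from its probe set with the highest mean. Genes above the array's median on 2 or more arrays (first experiment) or 3 or more (second experiment) were tested.

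The group means of each experiment were fitted with limma 3.58.1 (lmFit, eBayes) in R 4.3.3, giving 14 comparisons with Benjamini-Hochberg adjustment over all genes tested. Levels carry the SD between arrays, differences the SE of the fit. With 2 to 4 arrays in a group, array number limits precision. The genes and lists were chosen with earlier results of these data known. Named were the 8 genes, from each of 10 lists at most 4 called genes with the largest absolute difference and any set beside a member, and the 3 genes most like each member. Markers of other cells were named as examples, chosen after their values were seen. Some genes of the lists are not reported here. Deviations of same-numbered arrays had r of 0.15, 0.11 and 0.12 between the GFP classes of IgG1 GC cells. Some other pairs of groups also had positive r at every replicate number, and others had r of both signs. The labels name no pairs, and the main fit used no pairing, so that replicate number entered as a block in an alternative only. The fit was tested on simulated data. Alternatives were a further quantile normalization, no filter, mean of probe sets, a trended robust prior, fits on the compared groups alone, a replicate block, and leaving out arrays. Plots were made in python 3.11.15 using matplotlib 3.10.9.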

Additional observations from a re-analysis of the deposited data

How the results depend on the processing

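Over 1624 recomputed results of the 8 genes, 1525 kept their direction and side of the threshold, 9 lost a call, 15 gained one, none reversed, and 75 changed sign with no call in either. Part of this was fixed in advance. With 1 probe set per gene, the mean of probe sets left the values of the 8 genes unchanged. No filter, the trended prior and fits on the compared groups alone also left their differences as they were. Such settings could change a call but not a direction. The calls for Klf2, Klf3, Foxp1 and Btg1 in GC and PC against naive cells, and for Foxp1, Btg1 and Btg2 between PC and GC, held in every alternative run. In the comparison of zones, 2 of the 8 genes were called, not 1, with a trended robust prior and with a further quantile normalization, and leaving out 1 array gave 1 to 2. Between IgG1 PC and GFP-positive IgG1 GC, leaving out 1 array gave 3 to 5 genes of the 8, against 3, with 5 without IgG1 PC replicate 1.

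With only the compared groups in the fit, which leaves fewer arrays to estimate the spread, the genes called fell from 3230 to 2037 for IgE GC, 2813 to 1527 for GFP-positive IgG1 GC, 3606 to 2061 for GFP-negative IgG1 GC and 3540 to 1670 for IgG1 PC, each against naive cells. They went from 116 to 0 between IgE and IgG1 PC, from 0 to 1 for GFP in IgG1 GC cells, and from 11 to 1 for the isotype interaction. Leaving out 1 array gave 76 (without IgE PC replicate 1) to 253 (without IgG1 PC replicate 1) genes between IgE and IgG1 PC, 2 to 37 for the isotype interaction and 480 (without GFP-positive LZ replicate 2) to 813 between zones, against 764. Without both arrays that stood apart, 227 were called between IgE and IgG1 PC. With the replicate block, 72 were called there and 5 for the interaction. Between the GFP classes of IgG1 GC cells the replicate block left the count at 0, and it changed no call of the 8 genes. A further quantile normalization moved the share of higher calls from 72.3% to 62.3% for IgE GC against naive cells, from 81.9% to 71.4% between IgE and IgG1 PC and from 56.7% to 46.5% between zones. The causes were not tested.

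Signals near the array's median limit what can be said of Klf4 and of Klf3 outside naive cells. The naive arrays, shared by 5 comparisons, were the least alike, and 2 IgG1 PC arrays leave that group's spread to be borrowed from the others.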
